A study of Mus musculus with 17 samples.

Results

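The D-type cyclins, the kinases they activate and the inhibitors of those kinases were followed through 13 poly(A) RNA libraries of mouse macrophages. The members were taken by symbol from the deposited table of RPKM values (reads scaled to exon length and to library size), and all 10 were found among its 24453 gene models: the cyclins Ccnd1, Ccnd2 and Ccnd3, the kinases Cdk4 and Cdk6, the CIP/KIP inhibitors Cdkn1a and Cdkn1b, and the INK4 inhibitors Cdkn2a, Cdkn2c and Cdkn2d. Of these, 8 libraries came from iBMDMs, which are C57Bl/6EiJ bone marrow macrophages immortalised by a retrovirus carrying Myc and an activated BRAF, kept for 3 to 8 passages and expressing Cas9 with EGFP. These cells received a lentivirus with 2 guides against Atf3 (Atf3KO), Jun (JunKO) or Jund (JunDKO), or a control virus (Scramble). They were sorted for the blue fluorescent marker of the virus, and no cloning step was described. All were given vehicle, with 2 libraries in each group. The titles of the Scramble libraries name zsGreen, a green fluorescent protein, in place of vehicle. The other 5 libraries came from TGEMs, primary macrophages washed from the peritoneum of male mice of 8 weeks 3 days after thioglycollate injection and treated for 1 h with saline vehicle or with 100 ng/mL KLA, a lipid A that activates TLR4. There were 1 vehicle and 1 KLA library from C57Bl/6EiJ mice, and 1 vehicle and 2 KLA libraries from Balb/cJ mice. The remaining 4 samples of the series, nascent RNA libraries, were not analysed here. Nothing in the labels ties replicate libraries to separate cultures or animals, so the p-values measure the spread between libraries, which may be technical.

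A cell commits to DNA replication when D-type cyclins, whose genes respond to growth factor signals, bind CDK4 or CDK6 and the resulting kinase phosphorylates the retinoblastoma protein, which releases E2F transcription factors. INK4 proteins (p16 and its relatives) bind CDK4 and CDK6 and keep the cyclin away, whereas CIP/KIP proteins (p21, p27 and p57) inhibit the cyclin E and cyclin A kinases and also hold cyclin D complexes together. Macrophages grow in response to CSF1, which raises cyclin D1, and many resident or elicited macrophages divide little in culture.

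The libraries held between 1553296 and 18444431 reads, worked out from the smallest steps between RPKM values, and 74.1% to 86.4% of these lay in the exons of the gene models. The Atf3KO libraries had 10425 and 10631 gene models above 0, against 11884 to 12533 in the other iBMDM libraries. Of the targeted genes, Atf3 was higher in Atf3KO (154 and 169 RPKM, against 80.7 and 77.4 in Scramble, adjusted p = 0.00237). Jun did not pass the test in JunKO (26.2 and 20.5 RPKM, against 17.6 and 18.5, adjusted p = 0.912). Jund lay below both Scramble libraries in JunDKO without passing (6.94 and 6.07 RPKM, against 9.19 and 8.33, adjusted p = 0.654). Small Cas9 deletions can leave the RNA in place, so these levels do not check the labels, and the groups are called by their labels throughout. All mice were described as male, but the TGEM libraries held 19.2 to 28.1 RPKM of Xist, the RNA of the silenced X chromosome, and the iBMDM libraries at most 0.029. The 8 macrophage markers examined were above 0 in every group. B cell markers summed to 10.1 to 23.9 RPKM and fibroblast and mesothelial markers to 26.3 to 51.0 RPKM in the TGEM libraries, against at most 0.488 and 0.221 in iBMDMs. Eosinophil and mast cell markers summed to at most 6.17 RPKM and T cell markers to at most 0.519 RPKM in any library.

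The table places the gene models on mm10, with Ccnd1 at chr7:144929931-144939925 on the minus strand, Ccnd2 at chr6:127125709-127151048 on the minus strand and Ccnd3 at chr17:47593467-47599688 on the plus strand. Cdk4 lies at chr10:127063603-127067282 and Cdk6 at chr5:3343893-3531005, both on the plus strand. Cdkn1a lies at chr17:29093769-29100722 and Cdkn1b at chr6:134920401-134925525, both on the plus strand. The INK4 genes are on the minus strand, with Cdkn2a at chr4:89274473-89282192, Cdkn2c at chr4:109660876-109665372 and Cdkn2d at chr9:21288464-21291209. Values cover the exons of each model, which add up to between 845 and 11512 bases.

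Promoter windows of 300 bases, from 250 bases before to 50 bases after a transcript start, were given by RefSeq on GRCm38.p6 for 8 of the 10 genes, in 12 windows. The windows are shown for the kinase pair and for Cdkn1a because the kinases passed in opposite directions in Atf3KO, Cdkn1a passed in more of the comparisons below than any other member, and the 3 windows differ in motif content. Capitals mark the E box CACGTG, which reads the same on both strands and is a known binding site of Myc, the factor the immortalising virus carries. The Cdk4 window lies at chr10:127063285-127063584 on the plus strand, the Cdk6 window at chr5:3343643-3343942 on the plus strand, and the Cdkn1a window, for the transcript start used in the table, at chr17:29093519-29093818 on the plus strand.
Cdk4: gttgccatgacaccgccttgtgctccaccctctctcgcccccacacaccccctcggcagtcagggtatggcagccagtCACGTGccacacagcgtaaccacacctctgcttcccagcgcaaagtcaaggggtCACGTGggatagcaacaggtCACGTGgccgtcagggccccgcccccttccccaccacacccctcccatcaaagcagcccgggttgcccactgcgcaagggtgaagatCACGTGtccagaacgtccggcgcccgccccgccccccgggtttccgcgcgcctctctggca
Cdk6: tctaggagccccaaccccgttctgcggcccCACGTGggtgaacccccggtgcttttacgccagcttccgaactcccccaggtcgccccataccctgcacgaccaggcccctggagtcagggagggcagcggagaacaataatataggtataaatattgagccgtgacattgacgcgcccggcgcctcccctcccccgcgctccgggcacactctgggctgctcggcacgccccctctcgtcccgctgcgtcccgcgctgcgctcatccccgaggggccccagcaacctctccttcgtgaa
Cdkn1a: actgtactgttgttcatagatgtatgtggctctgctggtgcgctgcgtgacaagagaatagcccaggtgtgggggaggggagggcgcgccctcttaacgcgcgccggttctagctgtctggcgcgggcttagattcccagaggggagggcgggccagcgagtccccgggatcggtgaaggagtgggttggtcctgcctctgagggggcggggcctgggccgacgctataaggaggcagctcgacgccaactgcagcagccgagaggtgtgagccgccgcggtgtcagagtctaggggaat
The Cdk4 window held 4 E boxes, starting 172, 118, 98 and 11 bases before the RefSeq transcript start of that window, which lies upstream of the start of the table's Cdk4 model. Of all 32851 windows in the table, 7.15% held at least 1 E box and 8 windows held 4 or more. Cdk6 held 1, as did 1 of 2 Cdkn2c windows, and Cdkn1a held none. The AP-1 motif TGAGTCA or TGACTCA was in none of the 12 windows (5.20% of all windows), and the related motif TGACGTCA was in none either (1.79% of all). The E2F motifs TTTCGCGC and TTTGGCGC, read on both strands, were also absent from the 12 windows (0.81% of all). These matches describe letters within 300 bases and nothing further away.

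Ccnd1 was the member with the widest span of group means on the log2 scale. This gene, the cyclin induced by growth factors in most cell types, was the most abundant of the 3 D-type cyclins in every iBMDM library. It stood at 114 and 137 RPKM in Scramble, 129 and 148 in Atf3KO and 150 and 156 in JunKO. The JunDKO libraries, at 78.7 and 85.7 RPKM, were the lowest of the iBMDMs. In TGEMs it was between 1.32 and 2.99 RPKM in all 5 libraries, so the kinds of cell did not overlap. Ccnd3, a cyclin D used by many blood cells, stood at 26.0 and 16.9 RPKM in Scramble, 33.2 and 60.4 in Atf3KO, 29.7 and 22.8 in JunKO, 15.3 and 12.4 in JunDKO and 1.73 to 7.11 in TGEMs. The JunDKO libraries were the lowest of the iBMDM libraries and still above every TGEM library. Ccnd2 was the least abundant of the 3 cyclins in all 13 libraries. It was 6.29 RPKM in both Scramble libraries, 5.17 and 3.93 in Atf3KO and 9.26 and 8.20 in JunKO. The JunDKO libraries stood at 0.335 and 0.489 RPKM, within the TGEM range of 0.296 to 0.761.

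Summed over the 3 genes, D-type cyclin RNA came to between 94.4 and 213 RPKM in iBMDMs and to between 3.83 and 10.9 RPKM in TGEMs. Ccnd1 made up 69.7% to 86.9% of that sum in iBMDMs. In TGEMs its share was 23.2% to 47.1% and Ccnd3 took 45.2% to 68.8%, the larger share in 4 of 5 libraries. The exception was Balb/cJ vehicle, where the shares were 47.1% and 45.2% on 16 reads of Ccnd1 and 8 of Ccnd3. JunDKO had the lowest sums among iBMDMs, 94.4 and 98.5 RPKM, and Ccnd2 made up 0.4% and 0.5% of them, against 3.9% and 4.3% in Scramble.

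**Figure D1:**
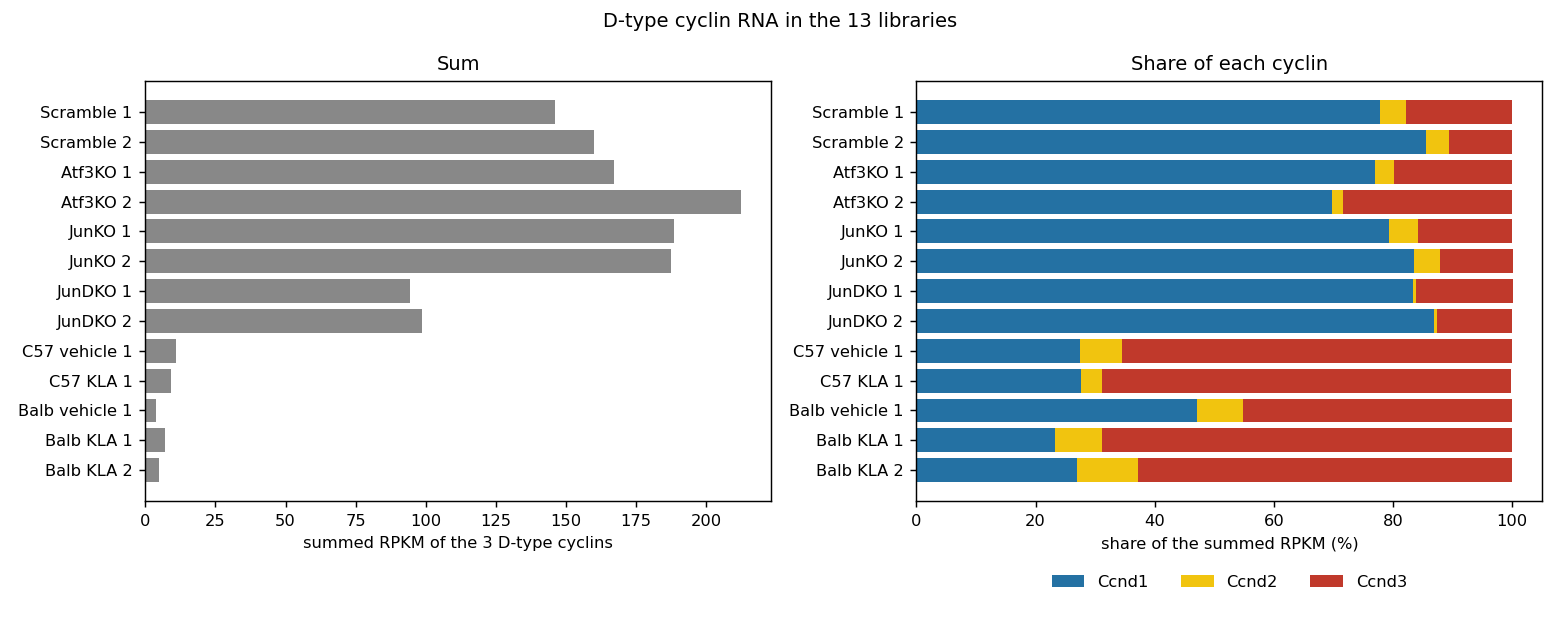
Bars give, for each of the 13 libraries, the summed RPKM of Ccnd1, Ccnd2 and Ccnd3 (left) and the share of each in that sum in percent (right). The TGEM sums lie at or under 10.9 RPKM, with Ccnd3 the largest share in 4 of the 5 libraries, while Ccnd1 makes up at least 69.7% in iBMDMs.

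Of the kinases, Cdk4 was the more abundant in every library, by a ratio of RPKM between 3.72 and 23.3. Cdk4 was 99.3 and 75.2 RPKM in Scramble, 185 and 204 in Atf3KO, 131 and 101 in JunKO, 135 and 104 in JunDKO, and 47.3 to 84.0 in TGEMs. Unlike the cyclins, it thus overlapped between Scramble and TGEMs. Cdk6 ran in another order, highest in Scramble (18.5 and 20.3 RPKM), then JunKO (14.3 and 16.7), JunDKO (12.1 and 13.7) and Atf3KO (10.6 and 8.79), with 4.37 to 7.98 in TGEMs. The smallest Cdk4 to Cdk6 ratios were those of Scramble (5.37 and 3.72) and the largest those of Atf3KO (17.4 and 23.3).

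Cdkn1a, which encodes p21, the inhibitor that p53 induces, was the most abundant inhibitor among the members in every library. It stood at 219 and 180 RPKM in Scramble, 372 and 368 in Atf3KO and 238 and 180 in JunKO. In JunDKO it was lowest among the iBMDMs, at 87.4 and 77.0 RPKM. In TGEMs it was 49.4 RPKM in C57Bl/6EiJ vehicle and 35.1 in Balb/cJ vehicle, against 173 in C57Bl/6EiJ KLA and 307 and 216 in Balb/cJ KLA. Cdkn1b, which encodes p27, was 9.07 and 15.3 RPKM in Scramble, 9.53 and 11.4 in JunKO, 7.78 and 12.0 in JunDKO and 20.8 and 17.4 in Atf3KO, so that the Atf3KO libraries were above the other 6 and the rest overlapped. Among TGEMs it was 14.3 and 14.9 RPKM with vehicle and 5.38 to 6.72 with KLA. The 2 inhibitors therefore stood apart by treatment in opposite directions, where 2455 of all 10357 tested genes stood apart in either direction.

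The INK4 inhibitors were low. Cdkn2c, which encodes p18, was 5.17 and 7.95 RPKM in Scramble, 15.3 and 17.1 in Atf3KO, 7.45 and 13.8 in JunKO, 12.9 and 17.8 in JunDKO, and 0 to 3.74 in TGEMs. Cdkn2d, which encodes p19, lay between 1.39 and 10.5 RPKM in iBMDMs and between 1.69 and 8.24 in TGEMs, with each pair of Scramble and Atf3KO libraries differing more than 2-fold within itself. Cdkn2a was 11.0 and 4.15 RPKM in Scramble, 3.5 and 6.38 in Atf3KO, 6.94 and 7.60 in JunKO, and 0 in both JunDKO libraries, with 0.137 to 2.02 in TGEMs. These are few reads, 24 over the Scramble pair and 21 over the JunKO pair. The gene model counted was the transcript of 845 bases that starts at the p16 exon, and 643 of its exonic bases are shared with the Arf transcript of the same locus, so reads of p16 and Arf cannot be told apart here.

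**Figure D2:**
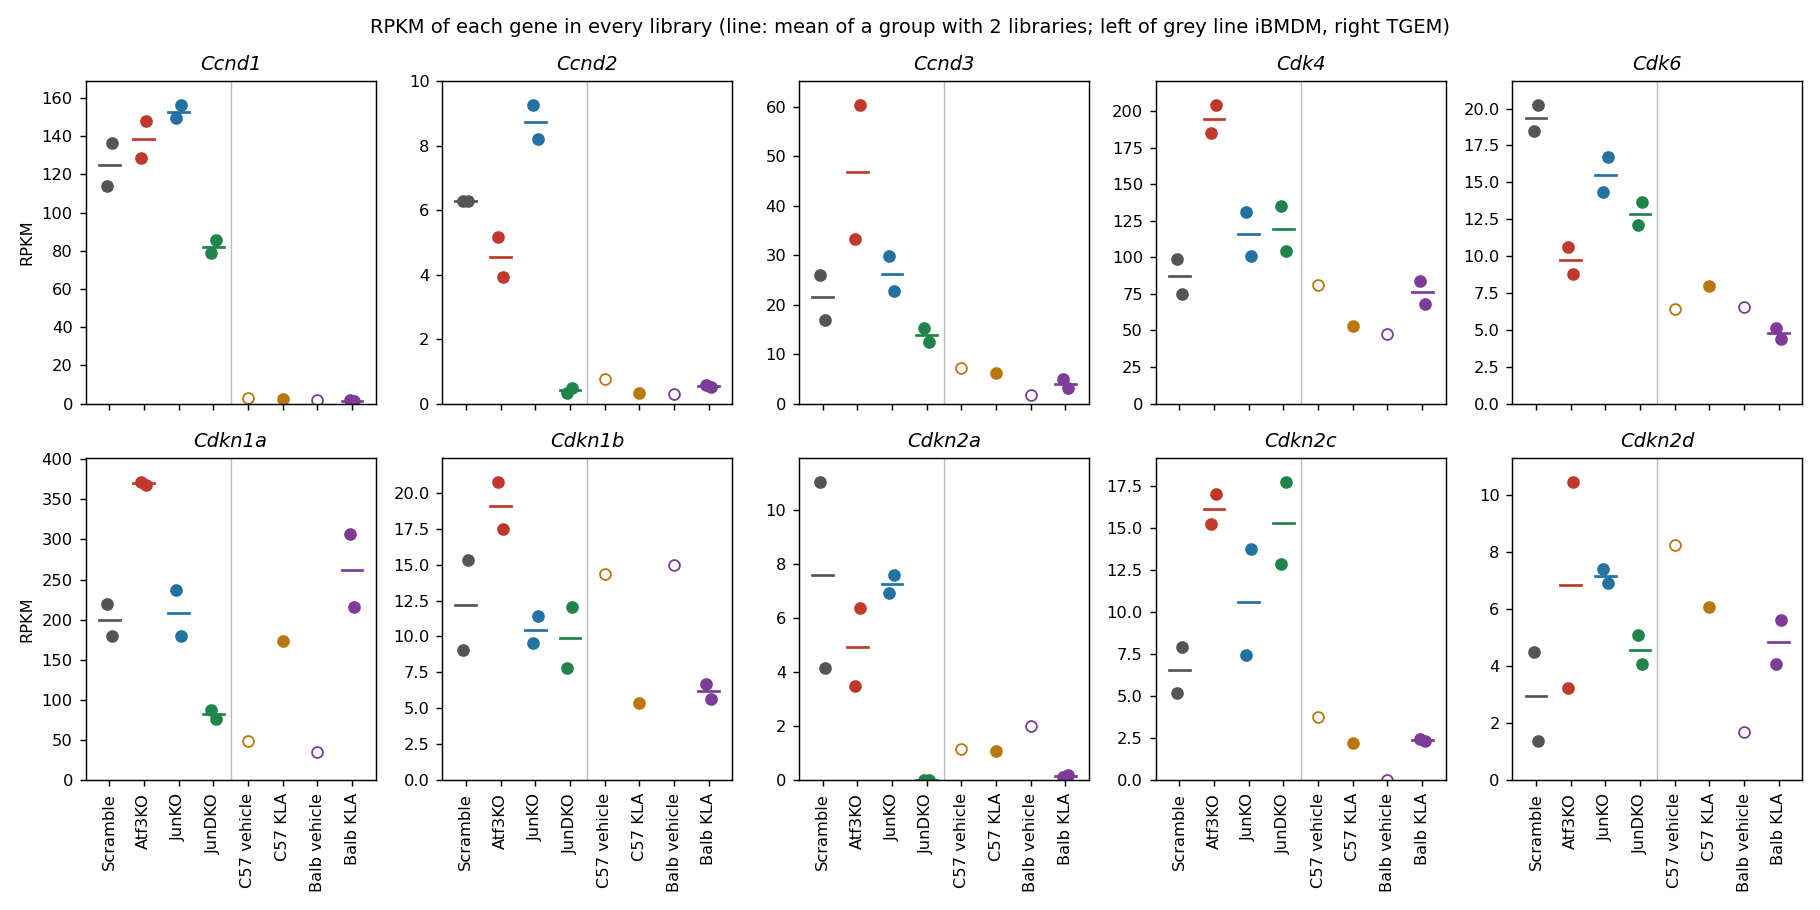
Each panel plots the RPKM of 1 gene (linear axis from 0) in the 13 libraries by group, with a line at the mean where a group has 2 libraries. Filled points are iBMDM or KLA libraries and open points vehicle TGEM libraries, and Cdkn2a is at 0 in both JunDKO libraries.

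The comparison of each knockout with Scramble asked which of these genes differed in RNA level between the knockout and control libraries. Since replicates are not tied to separate cultures, a difference between cultures cannot be told apart from an effect of the targeted gene. A gene was said to have passed where limma's adjusted p over all tested genes was under 0.05, and to be called where it also changed at least 2-fold and reached a group mean of 16 RPKM. Fold changes refer to log2 of RPKM + 1, which understates the change of low genes, and carry the standard error (SE), and the 3 comparisons share the Scramble libraries. As in any bulk sample, fewer cells that express a gene and less RNA in each cell cannot be told apart.

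In Atf3KO, 4 of the 10 genes rose and 1 fell. Cdk4 rose by 1.16 (SE 0.22, adjusted p = 0.00553), Cdkn2c by 1.21 (SE 0.32, adjusted p = 0.0183), Ccnd3 by 1.06 (SE 0.32, adjusted p = 0.0313) and Cdkn1a by 0.90 (SE 0.20, adjusted p = 0.00908), while Cdk6 fell by 0.93 (SE 0.20, adjusted p = 0.00780). Both kinases thus passed, in opposite directions, and their Atf3KO and Scramble libraries did not overlap, as for 7569 of all 10691 tested genes. Ccnd1 was at 0.15 (95% CI -0.25 to 0.54) and Ccnd2 at -0.40 (95% CI -0.94 to 0.14). The inhibitors Cdkn1b (0.64), Cdkn2a (-0.45) and Cdkn2d (0.94) did not pass either, though without Atf3KO replicate 1 Cdkn2d was at 1.66 and passed (adjusted p = 0.0369). Cdk4, Ccnd3 and Cdkn2c were called. The share of all genes that passed was itself large, 41.2%, and 12.5% of all genes were called, so 5 of 10 members is near the background. The fold changes in Atf3KO moved with the GC content of the gene models (Spearman's rho 0.50 over 10617 genes, which are not independent), and Ccnd3, the richest in GC of the 10 at 59.7%, had 0.24 (adjusted p = 0.216) once a GC trend was removed from each library. Ccnd3 failed to pass in 6 of 14 settings in all, among them no filter on low values (adjusted p = 0.0607), quantile normalization (0.0546) and a fit of the 2 groups alone (0.0646). Cdk4 (0.70, adjusted p = 0.00548), Cdkn1a (0.52, adjusted p = 0.0180), Cdkn2c (1.61, adjusted p = 0.00350) and Cdk6 (-0.55, adjusted p = 0.0153) passed limma's test in that fit too, as did Cdkn1b (0.99, adjusted p = 0.0144) and Cdkn2a (-1.12, adjusted p = 0.0284). Ccnd3 also shares 359 of its exonic bases with Bysl on the other strand, and strand-specific counting was not stated. Without Scramble replicate 2 only Cdk4 and Cdkn2c passed, and without Atf3KO replicate 2, which carries a later date in its title than the other iBMDM libraries, Cdk4, Cdk6 and Cdkn1a passed. Cdkn2c also failed to pass without Scramble replicate 1 (adjusted p = 0.107).

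In JunKO, none of the 10 genes passed the test, and none had an unadjusted p under 0.05. The background was small, since 0.281% of all genes passed. The largest difference was that of Cdkn2d, 1.17 (95% CI -0.01 to 2.35), and the narrowest intervals were those of Ccnd1 (0.29, 95% CI -0.10 to 0.69), Cdk6 (-0.30, 95% CI -0.75 to 0.14) and Cdkn1a (0.06, 95% CI -0.39 to 0.51). Fold changes of Ccnd2, Ccnd3, Cdk4, Cdkn1b, Cdkn2a and Cdkn2c lay between -0.16 and 0.59. At this depth changes within those intervals could not be told from none. Limma-voom on the recovered reads also passed 0 of the 10. Of all genes, 842 had an unadjusted p under 0.05 in limma's fit and 517 with limma-voom.

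In JunDKO, 3 genes fell and none rose. Cdkn1a fell by 1.26 (SE 0.20, adjusted p = 0.00519), Ccnd2 by 2.37 (SE 0.23, adjusted p = 0.000648) and Cdkn2a by 2.98 (SE 0.42, adjusted p = 0.00316). In each the JunDKO libraries lay below both Scramble libraries, and 6588 of all 10691 tested genes did not overlap between these groups. By reads, Ccnd2 had 55 in the JunDKO pair and 132 in the Scramble pair, a ratio of rates of 13.2 (95% exact interval 9.55 to 18.4, for counting error only). Cdkn2a had no read in either JunDKO library, and against a floor of 3 reads over the group its mean RPKM was at least 42.8-fold lower than in Scramble. That bound rests on single libraries, since it is at least 3.32-fold without JunDKO replicate 2, the deepest library, and at least 23.4-fold without Scramble replicate 1. Of the genes flanking Cdkn2a, Mtap, which encodes a methionine salvage enzyme, stood at 36.4 and 42.2 RPKM in JunDKO, against 43.5 and 51.6 in Scramble. Cdkn2b, which encodes the INK4 inhibitor p15, stood at 0.463 and 1.99 RPKM (1 and 51 reads) in JunDKO, against 2.24 and 1.26 in Scramble. Whether the Cdkn2a locus was intact in these cells was not tested. Cdkn1a alone was called, as Ccnd2 and Cdkn2a do not reach 16 RPKM. Of the members that did not pass, Cdkn2c stood at 1.12 (adjusted p = 0.0597, against 0.0451 with the 2 groups alone and 0.0255 with the replicate number as a block), Cdkn2d at 0.62, Cdk4 at 0.45, Cdkn1b at -0.26 and Ccnd3 at -0.57. Over all genes 11.7% passed and 4.97% were called. The median of all tested genes was 0.23 in this comparison, against a median of -0.56 for the members. When libraries were scaled to equal medians, Ccnd1 (-0.90, adjusted p = 0.0146) and Cdk6 (-0.84, adjusted p = 0.0362) passed as well, against -0.60 (adjusted p = 0.0621) and -0.55 (adjusted p = 0.110) as deposited. Ccnd1 also passed without that scaling, with limma-voom (-0.59, adjusted p = 0.0431) and in a fit without the Atf3KO libraries (-0.60, adjusted p = 0.0404), and Cdk6 with quantile normalization (-0.83, adjusted p = 0.0344). With the GC trend removed 7 genes passed, 6 lower and Cdkn2c higher (0.98, adjusted p = 0.0490). Without JunDKO replicate 2, the deeper of the pair, Cdkn1a was at -1.17 (adjusted p = 0.0666). Of the 6 neutrophil markers S100a8 alone was above 0 in the other iBMDM groups, at 21.8 to 41.1 RPKM, and all 6 were at 0 in JunDKO. The macrophage markers summed to between 16880 and 17440 RPKM in JunDKO and to between 22310 and 23850 in Scramble. Most of that sum was Lyz2, with means of 14960 RPKM in JunDKO and 20860 in Scramble. Adgre1 and Itgam also had lower means in JunDKO. Csf1r (633 against 412 RPKM), Cd68 (582 against 410), Mertk (36.5 against 7.65), Fcgr1 (67.4 against 53.6) and Cd14 (216 against 207) had higher means in JunDKO. The part of the neutrophil or macrophage markers in these differences was not tested.

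**Figure D3:**
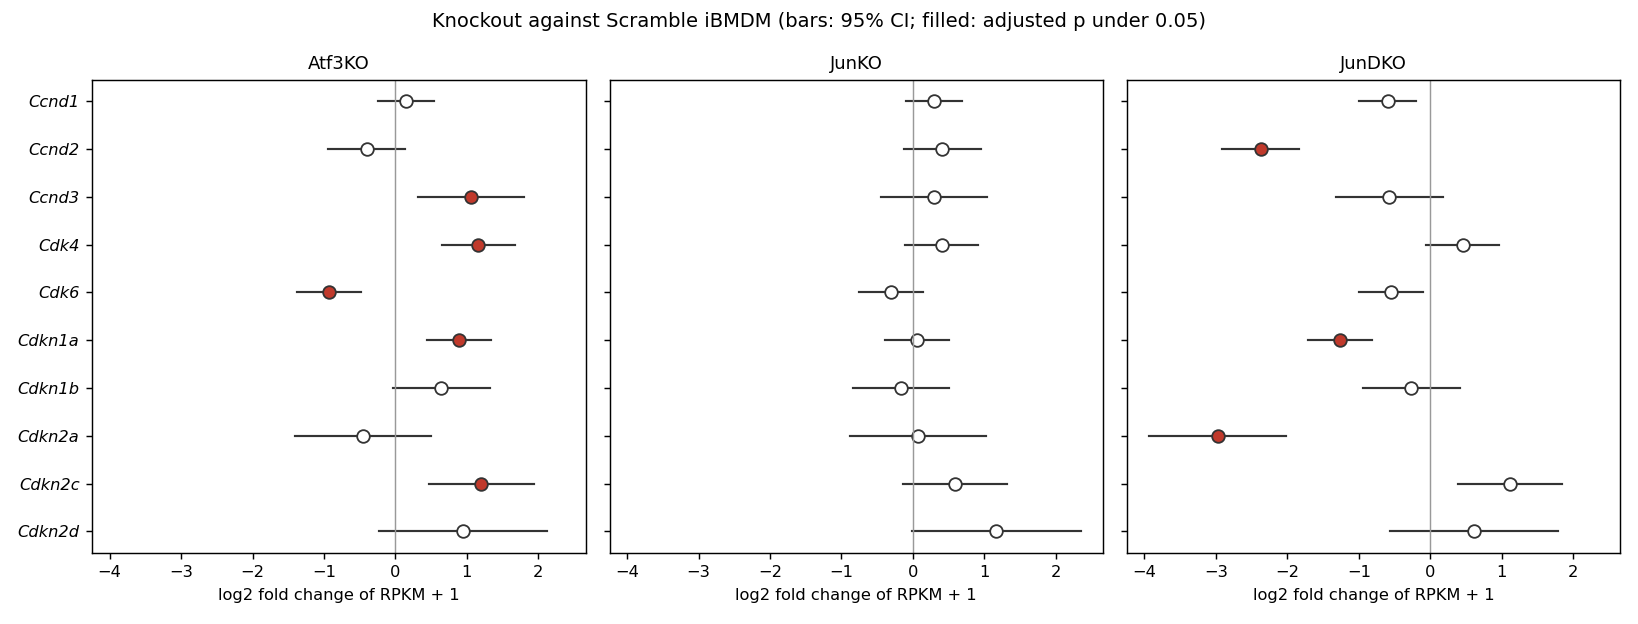
Points give the log2 fold change of RPKM + 1 of each gene in Atf3KO, JunKO and JunDKO against Scramble (2 libraries a group), with 95% confidence intervals from limma, and filled points passed at an adjusted p under 0.05. Points are filled for 5 genes in Atf3KO, none in JunKO and 3 in JunDKO, all to the left of 0 in the last.

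The knockouts were also set against each other, which leaves the Scramble libraries out of the difference. JunDKO was lower than JunKO in 4 of the 10 genes and higher in none, where 8.14% of all genes passed and 3.5% were called. Cdkn1a was lower by 1.32 (SE 0.20, adjusted p = 0.00556), Ccnd1 by 0.89 (SE 0.17, adjusted p = 0.0179), Ccnd2 by 2.78 (SE 0.23, adjusted p = 0.000406) and Cdkn2a by 3.05 (SE 0.42, adjusted p = 0.00404) in limma's fit. The other 6 lay between -0.87 (Ccnd3) and 0.53 (Cdkn2c), and of these Ccnd3 passed with the GC trend removed (-1.07, adjusted p = 0.00222). Ccnd2 passed without any single library of the pair of groups, whereas Ccnd1 did not pass when any one of them was left out (adjusted p = 0.0914 to 0.147). Cdkn1a did not pass without JunDKO replicate 1 (adjusted p = 0.0520), JunDKO replicate 2 (0.0785) or JunKO replicate 1 (0.0509), and Cdkn2a without either JunDKO library (adjusted p = 0.0522 and 0.0542). Atf3KO was higher than JunDKO in 7 genes, where 40.7% of all genes passed and 12.2% were called. Cdkn1a differed by 2.16 (SE 0.20, adjusted p = 0.000251), a fitted 4.47-fold, and Ccnd3 by 1.63 (SE 0.32, adjusted p = 0.00570). Ccnd1, Ccnd2, Cdk4, Cdkn1b and Cdkn2a passed in the same direction. Cdk6 (-0.38), Cdkn2c (0.09) and Cdkn2d (0.33) did not pass. Of the 7, Cdk4 did not pass in 7 and Cdkn1b in 6 of 14 alternative settings, Ccnd1 did not without either JunDKO library (adjusted p = 0.0714 and 0.0510), and Ccnd3 did not without JunDKO replicate 2 (adjusted p = 0.0584). Between Atf3KO and JunKO, where 35.5% of all genes passed, Cdk4 and Cdkn1a were higher in Atf3KO (0.75, adjusted p = 0.0316 and 0.84, adjusted p = 0.0141) and Cdk6 and Ccnd2 lower (-0.63, adjusted p = 0.0388 and -0.82, adjusted p = 0.0292). The other 6 members lay between -0.52 (Cdkn2a) and 0.81 (Cdkn1b). In a fit of those 2 groups alone, or without JunKO replicate 2, none of the 4 passed, and with the GC trend removed Cdk4 (0.36, adjusted p = 0.0740) and Cdk6 (-0.24, adjusted p = 0.194) did not pass. In that fit Cdkn1b (1.16, adjusted p = 0.00925), Cdkn2c (1.02, adjusted p = 0.0248) and Cdkn2a (-1.10, adjusted p = 0.0336) passed, and without Atf3KO replicate 1 Ccnd3 did (1.18, adjusted p = 0.0305). Cdk6 did not pass with the replicate number as a block either (adjusted p = 0.0563). Cdk4 also did not pass with no filter on low values (adjusted p = 0.0505) or without Atf3KO replicate 1 (adjusted p = 0.0557). Without Atf3KO replicate 2 Cdkn1a alone passed, and without JunKO replicate 1, of the 4, Cdk4 and Cdkn1a did.

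Genes that act upstream of, with or downstream of the cyclin D kinases were read from lists covering 50 genes. Of 8 proliferation genes 5 rose in JunDKO, where 11.7% of all genes passed, and none fell: Mki67, a marker of cycling cells, stood at 84.6 and 80.3 RPKM against 23.4 and 23.1 in Scramble (1.78, SE 0.20, adjusted p = 0.00121), and Rrm2, Top2a, Cdk1 and Ccnb1 also passed. In Atf3KO, where 41.2% of all genes passed, 5 rose and Pcna fell, with Mki67 at 1.00 (adjusted p = 0.00688). In JunKO none of the 8 passed. Over all tested genes the median change was 0.05 in Atf3KO and 0.01 in JunKO. Cyclin A gene Ccna2, which acts after the D-type cyclins, rose in both Atf3KO (1.17, adjusted p = 0.00468) and JunDKO (1.35, adjusted p = 0.00572). Ccne1, which encodes cyclin E1, rose in Atf3KO by 2.23 (adjusted p = 0.00162) while Ccne2, its close relative, fell by 1.33 (adjusted p = 0.0158). Of the 10 E2F and DP genes 6 rose in Atf3KO, E2f1 by 1.62 (adjusted p = 0.00434), and 1 fell, against the same 41.2% of all genes. Rb1, the gene of the retinoblastoma protein, fell in Atf3KO by 1.38 (adjusted p = 0.00475) and was at 0.24 in JunDKO (adjusted p = 0.578). The Atf3KO values of these listed genes are given without the GC correction, although fold changes there moved with GC content (rho 0.5). E2f1 had a mean of 38.4 RPKM with a standard deviation of 12.0 over the Atf3KO pair.

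The p53 list, which holds genes of the same group of targets as Cdkn1a, had 4 of 10 higher and 2 lower in Atf3KO and 2 of 10 lower in JunDKO, where 41.2% and 11.7% of all genes passed, so that neither count is far from the background. Phlda3 moved in the direction of Cdkn1a in both, 1.89 in Atf3KO (adjusted p = 0.00524) and -1.51 in JunDKO (adjusted p = 0.0305). Mdm2, the ubiquitin ligase gene that p53 induces, fell in both, by 0.76 in Atf3KO (adjusted p = 0.0143) and by 1.32 in JunDKO (adjusted p = 0.00334). Trp53 itself was higher in Atf3KO (0.80, adjusted p = 0.0443) and at 0.33 in JunDKO (adjusted p = 0.465). Ets2, a factor downstream of growth factor signals, fell in Atf3KO (-1.25, adjusted p = 0.00159) and in JunDKO (-1.57, adjusted p = 0.000925). These Atf3KO values too are given without the GC correction. Phlda3 had a mean of 53.2 RPKM with a standard deviation of 24.5 over the Atf3KO pair.

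Primary and immortalised macrophages of the same strain were compared through C57Bl/6EiJ vehicle TGEMs and Scramble iBMDMs. The tissue of origin, immortalisation, culture and title date all differ between them and cannot be told apart. The TGEM side is 1 library, and its fitted level and the error come from a model with strain and treatment as additive terms over all 13 libraries, so fitted values can depart from that library's own: Cdkn2c is fitted at -1.31 where the values are 3.74 RPKM against a Scramble mean of 6.56. In TGEMs 6 members were lower and none higher, where 46.3% of all genes passed and 21.1% were called. Ccnd1 was lower by 4.98 (SE 0.21, adjusted p = 1.07e-07), a fitted 31.6-fold. Cdkn1a was lower by 2.29 (SE 0.31, adjusted p = 0.000223), Ccnd2 by 2.24 (SE 0.28, adjusted p = 0.000127), Ccnd3 by 1.73 (SE 0.40, adjusted p = 0.00517), Cdk6 by 1.27 (SE 0.25, adjusted p = 0.00208) and Cdkn2a by 1.49 (SE 0.48, adjusted p = 0.0266). Cdk4 was at -0.45 (95% CI -1.21 to 0.30), Cdkn1b at 0.23 (95% CI -0.45 to 0.90) and Cdkn2d at 0.92 (95% CI -0.35 to 2.19), and Cdkn2c at -1.31 (adjusted p = 0.0646). The median of all tested genes was -0.28 and that of the members -1.4. Because fold changes here moved with GC content as well (rho 0.41 over 10848 genes), the GC-corrected values are given. The 6 members passed in that fit too, with Ccnd1 at -4.70, Ccnd3 at -2.45, Cdkn1a at -2.42, Cdkn2a at -2.04, Ccnd2 at -1.77 and Cdk6 at -0.62 (adjusted p = 0.0301), which is under 2-fold. Cdkn1b at 0.84 (adjusted p = 0.0211) and Cdk4 at -0.72 (adjusted p = 0.0398) then passed as well. Cdkn2a did not pass in 6 of 14 alternative settings (adjusted p up to 0.602), and Cdk6 did not without the C57Bl/6EiJ vehicle library, whose level was then inferred from the other TGEM libraries (-0.79, adjusted p = 0.116). In that fit Cdk4 (-1.36, adjusted p = 0.0365) and Cdkn2c (-2.97, adjusted p = 0.00522) passed. Ccnd1, Ccnd2, Ccnd3 and Cdkn1a passed in all 14 settings. B cell, fibroblast and mesothelial markers were above 0 in TGEMs, as given above, and their part in these differences was not tested.

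Another CIP/KIP gene ran against this direction. Cdkn1c, which encodes p57, stood at 345 and 667 RPKM in the vehicle TGEM libraries and at 181 to 356 in the KLA libraries, against at most 0.616 in iBMDMs (fitted 8.23, SE 0.37, adjusted p = 1.79e-07). In TGEM vehicle libraries its RPKM was above that of every member. All 8 proliferation genes were lower in TGEMs, Mki67 by 3.94 (adjusted p = 5.50e-05), as were all 5 genes of the cyclin E, cyclin A and CDK2 list, where 3300 of all 10929 tested genes passed as lower. Myc, which the immortalising virus carries, was lower in TGEMs by 1.75 (adjusted p = 0.00723), and reads of the viral and the native copy cannot be told apart.

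KLA was compared with vehicle over the 5 TGEM libraries with strain in the fit, which asked how 1 h of TLR4 stimulation moved these genes. Cdkn1a rose by 2.39 (SE 0.34, adjusted p = 0.0168), a fitted 5.25-fold, and was the 1 member of 8 tested that passed, where 1.53% of all genes passed and 1.13% were called and the median of all genes was -0.15. All 3 KLA libraries lay above both vehicle libraries, where 2455 of all 10357 tested genes did not overlap in either direction. Within a title date the difference was 3.09 in Balb/cJ (307 against 35.1 RPKM) and 1.79 in C57Bl/6EiJ (173 against 49.4 RPKM), each of 1 library a side. Whether it passed depended on the libraries and the fit: the adjusted p was 0.407 without the Balb/cJ vehicle library, 0.0754 without Balb/cJ KLA replicate 1, 0.0503 without the C57Bl/6EiJ vehicle library, 0.103 with title date in place of strain and 0.119 with no filter on low values, while the fold change stayed between 1.79 and 2.84. Cdkn1b was at -1.20 (95% CI -1.75 to -0.65, adjusted p = 0.0655), with all 3 KLA libraries below both vehicle libraries and within-date differences of -1.05 and -1.26. It passed in the fit of all 13 libraries (adjusted p = 0.0281) and with limma-voom on recovered reads (-1.31, adjusted p = 0.0271).

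The cyclins and kinases showed no passing change with KLA. Ccnd1 was at -0.18 (95% CI -0.83 to 0.48), Cdk4 at 0.12 (95% CI -0.69 to 0.94) and Cdk6 at -0.10 (95% CI -0.72 to 0.51). Ccnd3 (0.41), Cdkn2c (0.77) and Cdkn2d (0.47) did not pass, and Ccnd2 and Cdkn2a were under the 1 RPKM needed for testing. Among the listed genes Myc, a factor that drives growth genes, rose by 2.48 (SE 0.26, adjusted p = 0.00407) and Btg2, an antiproliferative p53 target and immediate-early gene, by 2.96 (SE 0.38, adjusted p = 0.0109). The third to pass was E2f8 (1.95, adjusted p = 0.0477), and these 3 were the passing genes among 45 tested. Cdkn1c was at -0.92 (adjusted p = 0.336).

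Between the strains none of the 8 tested members passed limma's test, where 2.31% of all genes did, and 2 had an unadjusted p under 0.05. Ccnd3 was lower in Balb/cJ by 0.99 (95% CI -1.76 to -0.23 for the signed difference, adjusted p = 0.152) and Cdkn2d by 0.93 (adjusted p = 0.211) without passing, and title dates differ between the strains. The other 6 tested members lay between -0.92 (Cdkn2c) and 0.12 (Cdkn1a and Cdkn1b). Without the C57Bl/6EiJ KLA library Cdkn2c was at -2.24 and passed (adjusted p = 0.0496). Fold changes between strains moved with GC content (rho -0.45 over 10286 genes), and with that trend removed Ccnd3 was at -0.48 (adjusted p = 0.410) and Cdkn2d at -0.61 (adjusted p = 0.406). Within dates, Ccnd2, Ccnd3, Cdk4, Cdkn2c and Cdkn2d were higher with KLA in Balb/cJ and lower with KLA in C57Bl/6EiJ, as for Cdk4 at 84.0 against 47.3 RPKM and 53.1 against 81.1 RPKM. The interaction of KLA and strain, which left 1 residual degree of freedom, passed for none of the 8 in limma or limma-voom (0% of all genes, with 835 at an unadjusted p under 0.05, Cdkn2c and Cdkn2d among them). The Balb/cJ vehicle library had 0 to 8 reads of Ccnd2, Ccnd3, Cdkn2a, Cdkn2c and Cdkn2d each, which limits any such comparison.

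**Figure D4:**
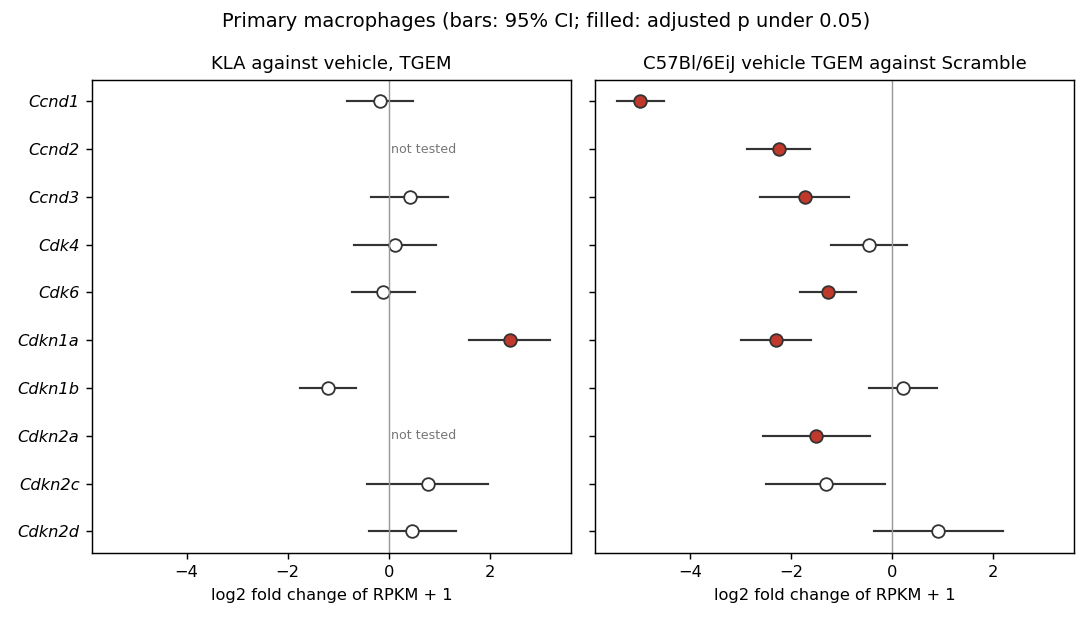
Points give the log2 fold change of RPKM + 1 with 95% confidence intervals from limma for KLA against vehicle in the 5 TGEM libraries (left) and for C57Bl/6EiJ vehicle TGEMs against Scramble iBMDMs (right), and filled points passed at an adjusted p under 0.05. Cdkn1a alone is filled on the left, at 2.39, and Ccnd1 lies farthest from 0 on the right, at -4.98.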

How the data were processed

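Poly(A) RNA libraries were made from 8 iBMDM and 5 TGEM samples and grouped by their labels. The submitters' processing notes name STAR and HOMER and the mm10 build. The deposited table holds RPKM per RefSeq gene model as computed by the authors, one column per library. Whole reads behind each value and the depth were recovered from the RPKM steps: all values that were checked, up to 50 reads, came out whole within 0.05 read or the rounding error. These reads served for limma-voom and for exact intervals only, which cover counting error only.

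Comparisons used limma 3.58.1 in R 4.3.3 (trend, two-sided) on log2(RPKM + 1) for genes whose mean in the fitted libraries reached 1 RPKM, with Benjamini-Hochberg adjustment over all tested genes. The 8 iBMDM libraries were fitted by group, the 5 TGEM libraries with treatment and strain, and all 13 for TGEMs against iBMDMs. GC content came from the RefSeq annotation of GRCm38 for 98.8% of gene models, and its trend was removed with a spline of 5 degrees of freedom. Figures and tables were made with Python 3.11.15.

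The members and the gene lists were chosen with earlier results of these data known. All members enter every comparison, listed pathway genes by count with at most 5 called genes, other CDK inhibitors and key partners where they bear on a member, and the 3 targeted genes once. Pcna, Ccnb1, E2f8, S100a8 and the genes flanking Ccnd2 and Cdkn2a were named after their values were seen. Alternatives were other pseudocounts, no filter, other scalings, a GC correction, limma-voom, other sets of libraries, a replicate block and each library left out.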

Additional observations from a re-analysis of the deposited data

How the results depend on the processing

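Over 94 gene and comparison pairs and 1252 alternative fits of them, no value past the threshold in either fit changed sign, 1157 stayed on the same side of the threshold, 66 no longer passed and 29 newly passed. Ccnd2 and Cdkn2a passed in JunDKO against Scramble, and Cdk4 in Atf3KO against Scramble, in all 14 settings.

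The number of members that passed moved beyond 1.5 times as follows. In JunDKO against Scramble it was 3, and 5 at equal library medians and 7 with the GC trend removed. In Atf3KO against JunKO it was 4, and 0 with those 2 groups alone in the fit. With KLA it was 1, and 0 with no filter on low values or with title date in place of strain, and 2 with limma-voom or all 13 libraries in 1 fit. Leaving out 1 library at a time gave 2 to 6 members in Atf3KO against Scramble, 2 to 3 in JunDKO against Scramble, 1 to 3 in JunDKO against JunKO, 0 to 4 in Atf3KO against JunKO, 3 to 5 in Atf3KO against JunDKO, 0 to 1 with KLA and 0 to 1 between strains. Where a group was left with 1 library, it was assumed to vary like the others. The cause of these changes was not tested.

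Same-numbered libraries deviated together in the 3 pairs of iBMDM groups without Atf3KO (correlations of 0.185 to 0.225) and apart in the 3 pairs with it (-0.215 to -0.12), so the numbers were not taken to pair all groups. With that number as a block, the count against Scramble was 5 for Atf3KO, 0 for JunKO and 4 for JunDKO, and it was 4 in JunDKO against JunKO, 3 in Atf3KO against JunKO and 7 in Atf3KO against JunDKO. Under the block Cdkn2c passed in JunDKO against Scramble (1.12, adjusted p = 0.0255) and Cdk6 did not in Atf3KO against JunKO (-0.63, adjusted p = 0.0563). With the Atf3KO numbers crossed, a pairing chosen after seeing the data, the block gave 6, 6 and 7 in the Atf3KO comparisons with Scramble, JunKO and JunDKO. TGEM titles carry no replicate numbers, and pairing by shared title date is the fit with date in place of strain. The interaction of KLA and strain could not be fitted with any library left out.

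Over all genes, the count that passed with KLA was 158, and 57 with no filter, 312 with limma-voom, 431 with all 13 libraries and 71 with title date. Between strains it was 239, and 44, 636 and 793 in the first 3 of these and 140 with the GC trend removed. In JunKO it was 30, and 19 with a pseudocount of 0.25, 122 with the GC trend removed and 14 both with the block and with 2 groups in the fit. In JunDKO against JunKO it was 870, and 1456 with the GC trend removed, in Atf3KO against JunKO 3792, and 2004 with those 2 groups alone, and for the interaction 0, and 21 with a pseudocount of 5. Of all genes, leaving out 1 library at a time passed 2087 (without Scramble replicate 2 and 2910 without Atf3KO replicate 2) to 4432 in Atf3KO against Scramble (4409), 409 (without JunDKO replicate 1) to 583 in JunDKO (1256) and 17 (without Scramble replicate 2) to 27 in JunKO (30). It passed 228 (without JunDKO replicate 1) to 400 in JunDKO against JunKO (870), 1544 (without JunKO replicate 2 and 2202 without Atf3KO replicate 2) to 3817 in Atf3KO against JunKO (3792) and 2147 (without JunDKO replicate 2 and 2519 without replicate 1) to 4393 in Atf3KO against JunDKO (4355). In TGEMs it passed 28 (without the Balb/cJ vehicle library and 78 without Balb/cJ KLA replicate 1) to 149 with KLA (158), 32 (without Balb/cJ KLA replicate 1) to 397 (without replicate 2) between strains (239), where each of the 5 libraries moved the count by over 1.5 times, and 2780 (without the C57Bl/6EiJ vehicle library) to 5015 against Scramble (5055), so the shares of all genes that passed rest on single libraries. Scaling to equal library medians moved the share of called genes that were higher from 62.6% to 51.7% in Atf3KO and from 54.2% to 30.3% in JunDKO against Scramble, and from 37.5% to 50.4% in TGEMs against Scramble.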

Other observations

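The members with the widest span of group means on the log2(RPKM + 1) scale were Ccnd1 (5.95), Cdkn2c (4.10) and Ccnd3 (4.07). The span of Cdkn2c rests on the Balb/cJ vehicle library, where it had 0 reads: without that library it was 2.41, below Ccnd3 (3.22), Cdkn2a (3.05), Cdkn1a (2.88) and Ccnd2 (2.88), and that of Ccnd1 was still 5.95. Among 3961 other genes with a mean of at least 16 RPKM, those whose values over the 13 libraries were most like Ccnd1 by Pearson's r were Mir3962 (0.995), which lies inside the Ccnd1 model and can share its reads, and then Mcm3, a subunit of the replicative helicase (0.992), Dck (0.992), Nsun2 (0.992) and Uhrf1 (0.991). Those most like Cdkn2c were Arpc4 (0.972), Prdx4 (0.947), Stard3nl (0.946), Slc1a5 (0.946) and Mthfd1 (0.945). Among those most like Ccnd3 were Emilin1 (0.982), Txndc5 (0.976), Xylt2 (0.973) and Bst2 (0.972). These correlations describe libraries that fall into iBMDMs and TGEMs, with different depths, and no test was made of them.

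The INK4 and CIP/KIP members also differed in their sums. The 3 INK4 genes came to between 13.5 and 33.9 RPKM in iBMDMs and between 3.71 and 13.1 in TGEMs. Cdkn1a and Cdkn1b together came to between 89.0 and 393 RPKM in iBMDMs, lowest in JunDKO and highest in Atf3KO, and to 50.1 and 63.7 RPKM in vehicle TGEMs against 179 to 314 RPKM with KLA. Of the genes around Ccnd2, Tigar stood at 10.1 and 8.43 RPKM in JunDKO, against 14.9 and 10.3 in Scramble. Parp11 stood at 5.90 and 8.40 RPKM in JunDKO, against 9.63 and 10.9 in Scramble.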
